A study of Mus musculus with 6 samples.

Results

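The basement membrane is the sheet of extracellular matrix that underlies every epithelium and wraps vessels, muscle and nerve. Here 33 genes encoding its laminins, collagens, linkers, proteoglycans, attachment proteins and laminin receptors were followed in embryonic mouse lungs that lacked *Yap* in the epithelium. The genes were chosen by name, with earlier results of these data known. All 33 had a row of their own among the 24402 loci of the deposited table. Whole lungs were taken from C57BL/6 embryos at 12.5 *dpc* (days post coitus), with 3 libraries from wild-type littermates (control) and 3 from Yap-flox/flox; Shh-Cre/+ embryos (*Yap* mutant). In the mutants, Cre made from the *Shh* locus deletes floxed *Yap* in the lung epithelium but not in the mesenchyme, and the Cre allele itself replaces 1 copy of *Shh*. Controls are described only as wild type, so they are not known to carry the floxed alleles or Cre. The comparison asks how the RNA levels of these genes differ in a lung whose epithelium has lost YAP, a transcriptional co-activator that works through TEAD factors.

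Laminins form the network that lies against the cell, as trimers of an alpha, a beta and a gamma chain. Collagen IV, likewise a trimer of alpha chains, forms another network, and nidogens and the heparan sulphate proteoglycans perlecan and agrin link both. Cells hold on to the sheet through integrins, dystroglycan and BCAM, the receptor for laminin alpha 5. In the branching lung, epithelium, mesenchyme, vessels, smooth muscle and mesothelium all contribute chains.

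For each locus the authors deposited 1 value per genotype, which is read here as FPKM (fragments normalised for transcript length and library size) summarised over the libraries of that genotype. There is therefore no spread between libraries and no test. All differences below are descriptions of those 2 values, and the depth per library is unknown. Fold changes are log2 of (*Yap* mutant FPKM + 0.1) over (control FPKM + 0.1). A gene is counted as lower or higher when this difference reached 1.5-fold in a locus whose values averaged 1 FPKM or more over both genotypes. The sums over all loci were close, at 538651 FPKM in the controls and 522467 FPKM in the mutants. *Yap1* itself had 76.1 FPKM in the controls and 65.6 FPKM in the mutants, a whole-lung level that includes mesenchyme and so does not by itself show the deletion. *Shh* had 15.6 FPKM in the controls and 2.31 FPKM in the mutants, a ratio of mutant to control of 0.148. The mutants carry a single working copy of *Shh*, and the part of this in the difference was not tested. In whole-lung RNA, fewer cells of a type and less RNA per cell cannot be told apart.

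Of the 33 genes, 28 passed the filter on low values. Since the genes were chosen with earlier results known, the shares of all loci beside their counts are descriptive only. The authors' values were lower in *Yap* mutant lungs for 20 of the 28 and higher for 8, against 51.8% of the 12716 loci that passed being lower. Past 1.5-fold, 4 of the 28 were lower (*Lamb3*, *Smoc2*, *Lama3* and *Lama5*), or 14.3%, where 3.3% of all loci were. Past 1.5-fold in the other direction were 2 of the 28 (*Fras1* and *Lama2*), or 7.14%, where 4.44% of all loci were. Exons of *Lama3*, *Lama2*, *Fras1* and *Bcam* overlap those of genes on the opposite strand, whose reads may be included. The median log2 fold change was -0.15 over the 28 genes and -0.01 over the 12716 loci. With the threshold set lower, at a ratio of 5 to 4, 8 of the 28 were lower (6.8% of all loci) and 2 were higher (9.63% of all loci), and the other 18 lay within that ratio. With it set at 2-fold, 3 were lower (1.28% of all loci) and 0 were higher (2.15% of all loci). The genes with the largest differences were thus a few laminin chains, a Fraser complex gene and *Smoc2*, while the abundant collagen IV, nidogen and proteoglycan genes lay near their control levels.

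**Figure D1:**
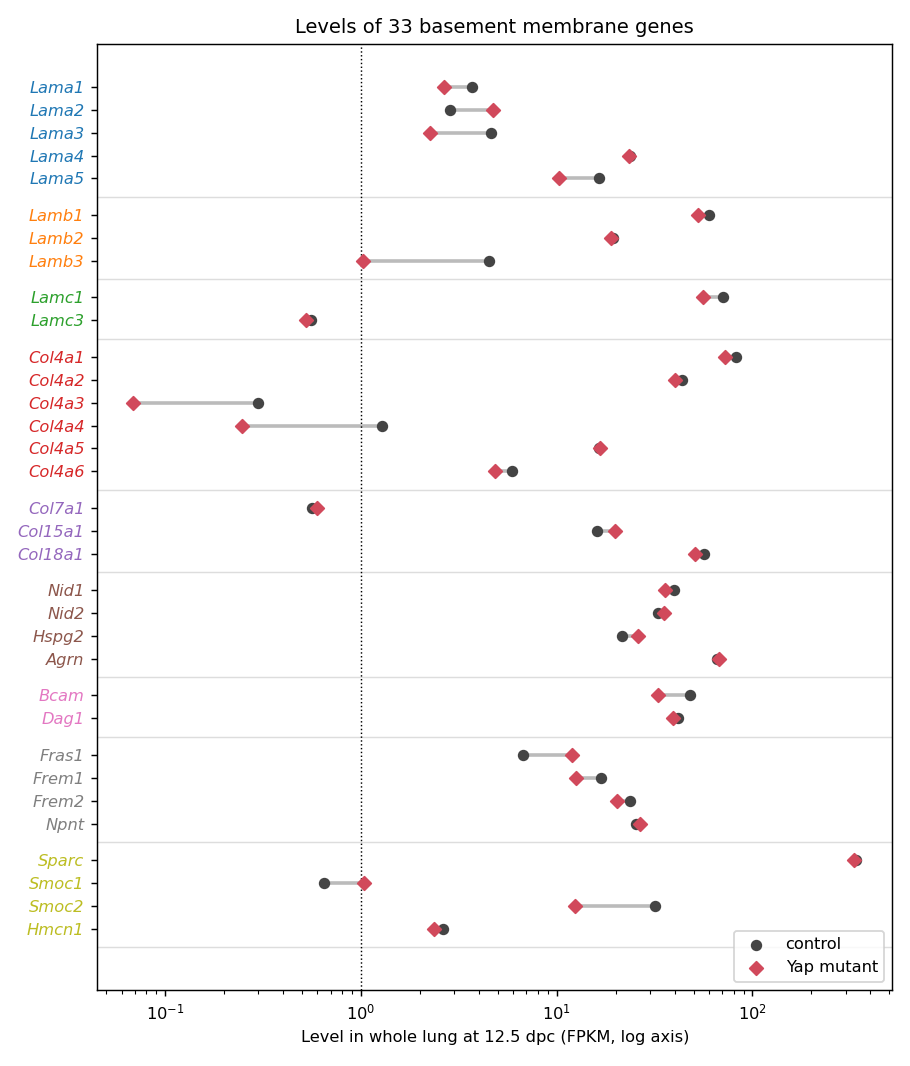
Level of each of the 33 genes in whole lung at 12.5 dpc, in FPKM on a log axis, with 1 circle for control and 1 diamond for Yap mutant, each the authors' value over the libraries of that genotype. Label colours and horizontal lines separate the roles, and the dotted line marks 1 FPKM. The longest gaps above that line are those of Lamb3 (4.49 to 1.03 FPKM) and Smoc2 (31.8 to 12.3 FPKM).

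Among the laminin alpha chain genes, *Lama4*, which encodes the alpha chain typical of vessels and mesenchyme, had the highest level and hardly differed. It had 23.8 FPKM in the controls and 23.3 FPKM in the mutants, a log2 fold change of -0.03. *Lama5* encodes the alpha chain of laminin-511, a main epithelial laminin, and lies on chromosome 2 of GRCm38 from 180176373 to 180225859 (minus strand). With 16.5 FPKM in the controls and 10.3 FPKM in the mutants, it stood at a log2 fold change of -0.68, and 2.67% of the 12716 loci had a lower one. *Lama3*, on chromosome 18 from 12333711 to 12583821 (plus strand), encodes the alpha chain of laminin-332, which anchors stratified epithelia and basal cells. It had 4.61 FPKM in the controls and 2.25 FPKM in the mutants, 2.05-fold lower by the ratio of the values and -1.01 on the log2 scale. *Lama1*, whose chain is that of the early embryonic laminin-111, had 3.71 FPKM and 2.65 FPKM, a log2 fold change of -0.47 that stayed within 1.5-fold. Of the 3 alpha chain genes best known from epithelium, *Lama1*, *Lama3* and *Lama5*, 2 were thus lower past 1.5-fold.

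*Lama2* went the other way. It encodes the alpha chain of laminin-211 and is best known from muscle and peripheral nerve. It lies on chromosome 10 from 26981241 to 27617024 (minus strand) and had 2.87 FPKM in the controls and 4.73 FPKM in the mutants. This is 1.65-fold higher by the ratio of the values and 0.70 on the log2 scale. With 1 FPKM in place of 0.1 FPKM added, the log2 fold change was 0.57, which is within 1.5-fold.

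Since each trimer holds a single alpha chain, the share of each alpha chain gene within a genotype was also computed. These shares do not depend on the scaling between genotypes. The 5 alpha chain genes summed to 51.5 FPKM in the controls and 43.2 FPKM in the mutants. *Lama5* made up 32.1% of that sum in control and 23.8% in *Yap* mutant lungs. The share of *Lama4* was 46.2% in control and 53.9% in the mutants, and that of *Lama2* was 5.57% and 11.0%. *Lama3* held 8.96% and 5.20%. The summed alpha chain FPKM of *Yap* mutant lungs thus held larger shares of *Lama4* and *Lama2* and smaller ones of *Lama5*, *Lama3* and *Lama1*. The level of *Lama4* itself hardly differed, so its larger share goes with the smaller sum. Which cells made these RNAs was not measured.

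Of the beta chain genes, *Lamb3* had the largest fold difference of the 28 genes. It encodes the beta chain of laminin-332 and lies on chromosome 1 from 193301949 to 193343878 (plus strand). Its level was 4.49 FPKM in the controls and 1.03 FPKM in the mutants, 4.36-fold lower by the ratio of the values and -2.02 on the log2 scale. Among the 12716 loci, 0.26% had a lower log2 fold change. *Lamb1*, the widespread beta chain gene, had 60.0 and 52.6 FPKM (log2 fold change -0.19). *Lamb2* had 19.3 and 19.0 FPKM (log2 fold change -0.03). In the summed FPKM of the beta chain genes, *Lamb3* held 5.35% in control and 1.42% in *Yap* mutant lungs, while *Lamb1* held 71.6% and 72.5%.

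*Lamc1*, the gamma chain gene used by most laminins, was the third most abundant of the 33 genes in the controls, with 70.6 FPKM in the controls and 56.0 FPKM in the mutants (log2 fold change -0.33). *Lamc3* was low in both genotypes, at 0.558 and 0.522 FPKM, and did not pass the filter. The alpha and beta chain genes read here for laminin-332, *Lama3* and *Lamb3*, were thus each at least 1.5-fold lower, at log2 fold changes of -1.01 and -2.02. By contrast, the partners of the *Lama5* chain in laminin-511, *Lamb1* and *Lamc1*, were within 1.5-fold. The ratio of *Lama3* to *Lamb3* FPKM was 1.03 in control and 2.18 in *Yap* mutant lungs, so the *Lamb3* level was lower by more than that of *Lama3*.

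**Figure D2:**
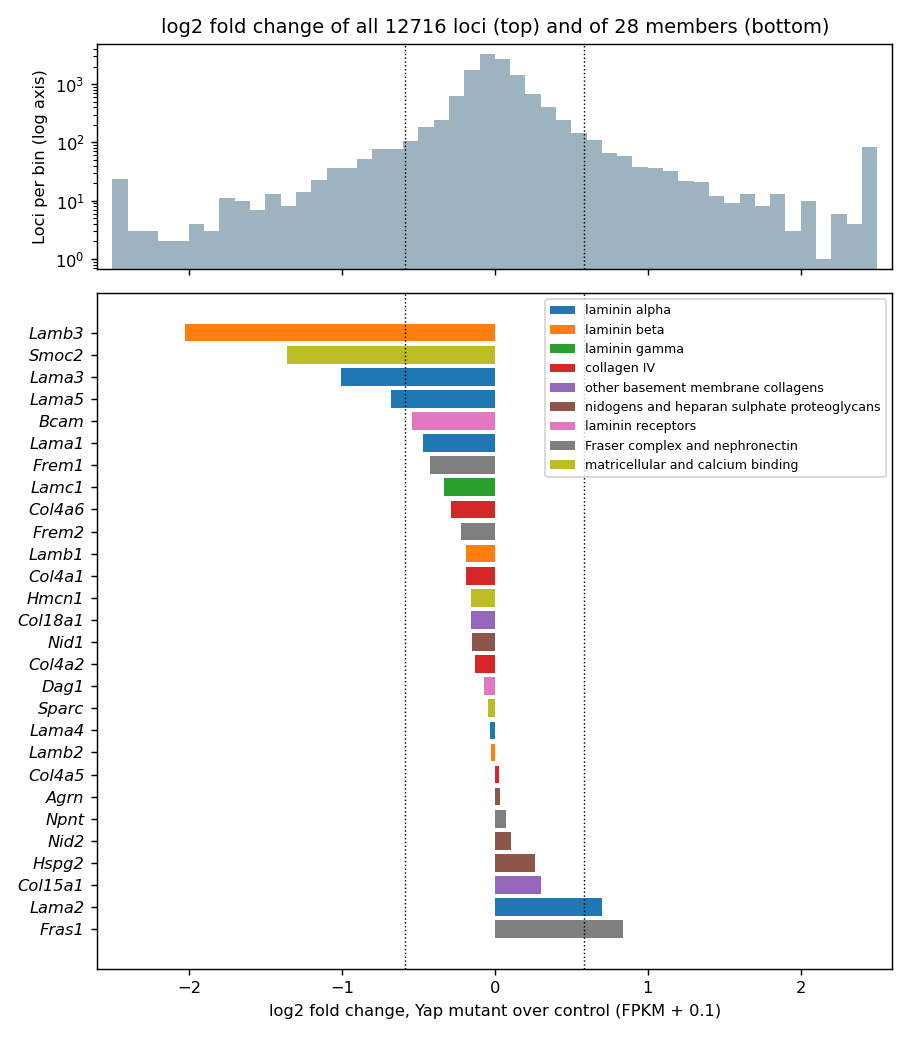
Distribution of the log2 fold change (Yap mutant over control, FPKM + 0.1) over the 12716 loci averaging 1 FPKM or more (top, loci per bin on a log axis, the outermost bins also holding all loci beyond 2.5 in size) and the same value for the 28 genes that passed this filter (bottom, 1 bar per gene, coloured by role). Dotted lines mark 1.5-fold in either direction, passed downward by Lamb3, Smoc2, Lama3 and Lama5 and upward by Lama2 and Fras1.

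BCAM is an immunoglobulin-family receptor for the laminin alpha 5 chain. *Bcam* lies on chromosome 7 from 19756138 to 19770532 (minus strand). It had 47.8 FPKM in the controls and 32.8 FPKM in the mutants, a log2 fold change of -0.54, which is just within 1.5-fold. Of all loci, 3.68% had a lower log2 fold change. *Dag1*, which encodes dystroglycan, a receptor for several laminins, perlecan and agrin, had 41.5 and 39.5 FPKM (log2 fold change -0.07).

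The sequences upstream of these laminin and receptor genes are shown because YAP acts through TEAD factors, whose core motif is GGAATG. Promoter sequences from RefSeq on GRCm38.p6 were found for 23 of the 33 genes, in 29 windows of the 250 bases before a start site. Both strands were searched for GGAATG and for TGANTCA, the AP-1 motif. GGAATG occurred in 5 of the 29 windows (17.2%), those of *Lamb3*, *Nid1*, *Frem2*, *Hmcn1* and *Col18a1*, and in 12.6% of all 32851 windows. TGANTCA occurred in 0 of the 29 and in 6.75% of all windows. Among the 3 genes past 1.5-fold that had a promoter entry, *Lamb3*, *Lama5* and *Lama2*, only *Lamb3* held a GGAATG match. That match lies 162 bases before the second of its RefSeq start sites and falls inside the first exon of a longer GENCODE transcript. The first RefSeq start site (193301994) lies upstream of the match, and its own window held none. The match is given here with 10 bases on either side (chr1:193302066-193302091, plus strand, the motif in capitals as its reverse complement).
*Lamb3* site: ggggaccccaCATTCCcagggagctc

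No match to either motif was present in the windows of *Lama5*, *Bcam* and *Lama2*, which are printed whole and in lower case, 5′ to 3′ on the strand of the gene. Those of *Lama5* (chr2:180225860-180226109, minus strand) and *Bcam* (chr7:19770533-19770782, minus strand) are of a gene past 1.5-fold and a gene just within it, both with lower values in *Yap* mutant lungs. That of *Lama2* (chr10:27616943-27617192, minus strand) is of a gene with a higher value. The *Bcam* window overlaps an exon of the antisense gene *Gm26600*. In GENCODE, *Bcam* reaches upstream to 19771016 and *Lama2* to 27619758. The windows of these genes lie before a RefSeq start site but inside the GENCODE gene. A match is a description of the letters in the window and no evidence of binding. The windows are short, so the absence of a match says nothing of sites farther upstream, at *Bcam* or elsewhere, or of binding by TEAD factors. The paper searched longer promoters and reports a conserved TEAD-binding site in that of *Bcam*. By ChIP-Seq of wild-type lungs, at a later stage than the RNA here, and by ChIP-qPCR it also found YAP and TEAD at that promoter. The paper names *Bcam* as a YAP target and reports it as downregulated in the absence of YAP.
*Lama5* promoter: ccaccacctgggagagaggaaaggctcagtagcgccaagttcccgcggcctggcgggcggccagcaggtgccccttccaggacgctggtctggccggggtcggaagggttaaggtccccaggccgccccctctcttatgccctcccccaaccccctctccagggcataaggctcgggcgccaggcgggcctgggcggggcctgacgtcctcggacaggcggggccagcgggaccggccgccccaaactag
*Bcam* promoter: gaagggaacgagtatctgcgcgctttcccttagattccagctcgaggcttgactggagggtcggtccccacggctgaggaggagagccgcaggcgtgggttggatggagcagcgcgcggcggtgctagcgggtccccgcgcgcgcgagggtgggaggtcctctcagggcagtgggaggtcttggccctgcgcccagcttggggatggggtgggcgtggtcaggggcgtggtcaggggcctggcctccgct
*Lama2* promoter: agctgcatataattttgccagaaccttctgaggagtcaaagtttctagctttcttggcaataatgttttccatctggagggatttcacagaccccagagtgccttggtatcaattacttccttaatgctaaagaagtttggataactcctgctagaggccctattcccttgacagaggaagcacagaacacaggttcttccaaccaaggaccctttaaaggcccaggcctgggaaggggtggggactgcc
The GC content of these windows was 72.4% for *Lama5*, 70% for *Bcam* and 47.2% for *Lama2*.

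Collagen IV genes lie in head-to-head pairs. *Col4a1* and *Col4a2*, whose products make up the ordinary collagen IV trimer, have RefSeq start sites 21 bases apart on chromosome 8. *Col4a1* had 82.7 FPKM in the controls and 72.7 FPKM in the mutants (log2 fold change -0.19), and *Col4a2* had 43.9 and 40.0 FPKM (log2 fold change -0.13). The ratio of their FPKM was 1.89 in control and 1.82 in *Yap* mutant lungs. Together they held 84.1% of the summed collagen IV FPKM in the controls and 83.8% in the mutants, so the bulk of this network's RNA kept its make-up.

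*Col4a5* and *Col4a6*, paired on the X chromosome with start sites 1343 bases apart, differed little from control. *Col4a5* had 16.4 and 16.7 FPKM (log2 fold change 0.03), and *Col4a6* had 5.93 and 4.84 FPKM (log2 fold change -0.29). These 2 genes are X-linked, and the genotypes differed in sex-linked RNA. Of 4 Y-linked genes read, none exceeded 0.0163 FPKM in the controls, while in the mutants they ranged from 4.61 to 16.5 FPKM. *Xist* had 97.0 FPKM in the controls and 50.4 FPKM in the mutants. The part of this in the values of the 33 genes was not tested.

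*Col4a3* and *Col4a4*, the pair best known from the glomerulus and the alveolar wall, were below the filter and are given by their values only. *Col4a4* had 1.28 FPKM in the controls and 0.248 FPKM in the mutants, and *Col4a3* had 0.299 and 0.0688 FPKM. The controls were thus higher by ratios of 5.17 and 4.35, but at levels where the precision is unknown. The table gives both the same interval, on chromosome 1 from 82448446 to 82722059.

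**Figure D3:**
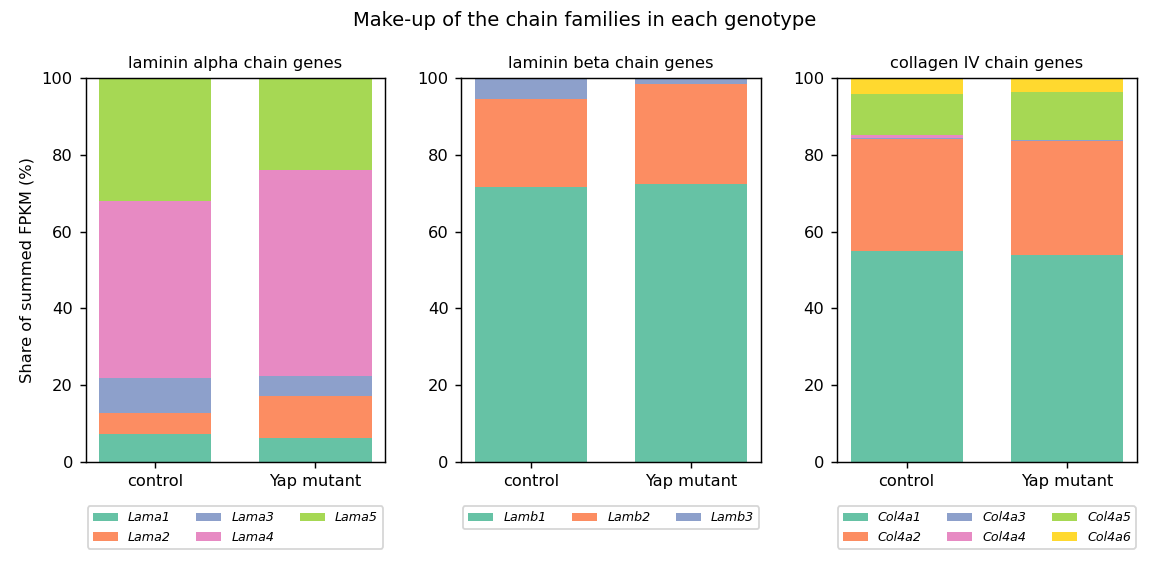
Share of each chain gene in the summed FPKM of its family (percent, stacked to 100) in control and Yap mutant lungs, for laminin alpha, laminin beta and collagen IV genes, from the authors' 1 value per genotype. Lama5 takes 32.1% of the alpha sum in control and 23.8% in Yap mutant lungs, Lamb3 takes 5.35% and 1.42% of the beta sum, and the collagen IV bars are nearly alike.

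The other collagens of the zone showed no difference of 1.5-fold. *Col18a1*, the source of endostatin, had 56.7 FPKM in the controls and 50.9 FPKM in the mutants (log2 fold change -0.16). *Col15a1*, a related collagen of vessel and muscle basement membranes, had 16.0 and 19.8 FPKM (log2 fold change 0.30). *Col7a1*, which forms anchoring fibrils that bind laminin-332 in skin, was low, at 0.563 and 0.595 FPKM, and did not pass the filter.

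The linker and proteoglycan genes all lay within 1.5-fold of control. *Nid1* and *Nid2* encode nidogens, which bridge laminin and collagen IV. *Nid1* had 39.6 and 35.7 FPKM (log2 fold change -0.15) and *Nid2* had 33.0 and 35.4 FPKM (log2 fold change 0.10). *Hspg2*, encoding perlecan, had 21.5 FPKM in the controls and 25.9 FPKM in the mutants (log2 fold change 0.26). *Agrn*, encoding agrin, had 65.9 and 67.4 FPKM (log2 fold change 0.03). Over these 4 genes the summed level was 159.9 FPKM in the controls and 164.4 FPKM in the mutants. The summed laminin alpha, beta and gamma levels were lower, also within 1.5-fold. The log2 ratios of those sums were -0.25, -0.21 and -0.33.

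The Fraser complex proteins FRAS1, FREM1 and FREM2 depend on each other at the epithelial basement membrane, and of their genes 1 was past 1.5-fold. *Fras1*, on chromosome 5 from 96373824 to 96784728 (plus strand), had 6.69 FPKM in the controls and 12.0 FPKM in the mutants. This is 1.80-fold higher by the ratio of the values and 0.84 on the log2 scale, and 2.78% of all loci had a higher log2 fold change. *Frem1* had 16.8 FPKM in the controls and 12.5 FPKM in the mutants (log2 fold change -0.42), and *Frem2* had 23.7 and 20.3 FPKM (log2 fold change -0.22). The ratio of *Fras1* to *Frem1* FPKM was therefore 0.399 in control and 0.961 in the mutants. *Npnt*, which encodes nephronectin, a ligand of integrin alpha 8, had 25.4 and 26.7 FPKM (log2 fold change 0.07).

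*Smoc2*, which encodes a secreted calcium-binding protein of the SPARC family, had the largest difference in FPKM units among the 6 genes past 1.5-fold. It lies on chromosome 17 from 14279506 to 14404790 (plus strand) and had 31.8 FPKM in the controls and 12.3 FPKM in the mutants. That is 2.58-fold lower by the ratio of the values and -1.36 on the log2 scale, with 0.653% of all loci lower. Its relative *Smoc1* was low, at 0.645 and 1.04 FPKM, below the filter and higher rather than lower. *Sparc*, which encodes a collagen-binding protein and was the most abundant of the 33 genes, had 338.9 and 328.1 FPKM (log2 fold change -0.05). *Hmcn1*, encoding hemicentin 1, had 2.64 and 2.36 FPKM (log2 fold change -0.16).

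Genes that act around the basement membrane were read from 6 lists of 72 symbols, of which 67 had a locus and 58 loci passed the filter. These lists too were chosen with earlier results of these data known. Past 1.5-fold, 7 of the 58 were lower (12.1%, against 3.3% of all loci) and 3 were higher (5.17%, close to the 4.44% of all loci). Of the 7 lower ones, 5 were among the 9 other basement membrane proteins that passed, where the median log2 fold change was -0.69. The largest of these differences were those of the netrin genes *Ntn1* and *Ntn4* and of *Tinagl1*. *Ntn1*, a guidance cue also found in the basement membrane of lung buds, had 6.28 FPKM in the controls and 2.52 FPKM in the mutants (log2 fold change -1.28). *Ntn4*, whose product binds laminin gamma 1, had 1.48 and 0.702 FPKM (log2 fold change -0.98). These values are close to the filter and of unknown precision, and the list counts were made in the main setting only. *Tinagl1*, which encodes a secreted matrix protein, had 5.25 and 3.14 FPKM (log2 fold change -0.72). None (0) of the 9 was at least 1.5-fold higher, though 3 were above control. Of these, *Fbln2* was just within 1.5-fold, with 16.0 FPKM in the controls and 24.0 FPKM in the mutants (log2 fold change 0.58).

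Integrin genes went both ways, with 1 of 8 lower and 2 of 8 higher past 1.5-fold. *Itga3*, whose product pairs with integrin beta 1 as a receptor for laminin-332 and laminin-511, had 13.7 FPKM in the controls and 8.68 FPKM in the mutants (log2 fold change -0.66). *Itga2*, a collagen receptor gene, had 3.15 and 6.67 FPKM (log2 fold change 1.06), and *Itgb8* had 2.04 and 3.24 FPKM (log2 fold change 0.64). *Itga6*, the other laminin-binding alpha subunit gene of epithelia, had 14.8 and 19.1 FPKM (log2 fold change 0.37), within 1.5-fold. *Itgb1*, the gene of the integrin beta 1 subunit, had 158.5 and 155.6 FPKM (log2 fold change -0.03). *Itga6* and *Itgb1*, and *Fbln2* above, are named after their values were seen.

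Of the 9 genes that passed in the list of other receptors and associated proteins, 1 was past 1.5-fold. This was *Dmd*, the dystrophin gene, with 5.42 FPKM in the controls and 3.56 FPKM in the mutants (log2 fold change -0.59). None (0) of 13 genes of collagen IV folding and crosslinking passed 1.5-fold, and their median log2 fold change was -0.02. None (0) of 8 genes of dystroglycan glycosylation passed it either, with a median of 0.01. Among 11 protease and inhibitor genes, the metalloprotease gene *Adamts1* was past 1.5-fold, with 24.5 FPKM in the controls and 42.9 FPKM in the mutants (log2 fold change 0.81). Among the genes of these 3 lists that passed the filter, the others lay within 1.5-fold of control.

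**Figure D4:**
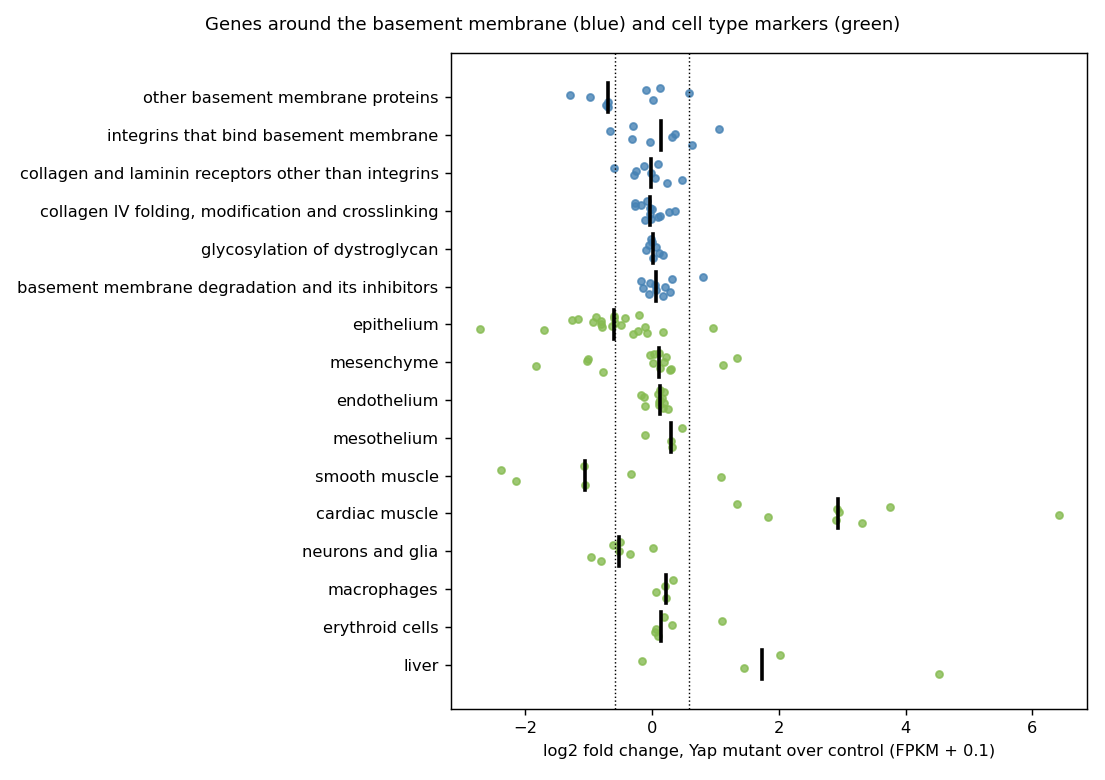
log2 fold change (Yap mutant over control, FPKM + 0.1) of each gene averaging 1 FPKM or more, 1 point per locus, in 6 lists of genes around the basement membrane (blue) and 10 lists of cell type markers (green). Black bars are list medians and dotted lines mark 1.5-fold in either direction. The medians are -0.69 for other basement membrane proteins, -0.60 for epithelium, -1.06 for smooth muscle and 2.94 for cardiac muscle.

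Markers of several cell types of the lung, and of heart muscle and liver, differed between the genotypes in the same libraries. Their part in the values above was not tested. *Nkx2-1*, the transcription factor that marks lung epithelium, was present in both, at 61.9 FPKM in the controls and 35.9 FPKM in the mutants. Of 22 epithelial markers, 20 were below control, 12 were at least 1.5-fold lower and 1, the surfactant protein gene *Sftpc*, was at least 1.5-fold higher (28.4 FPKM in the controls and 55.8 FPKM in the mutants). Their summed level was 676.1 FPKM in the controls and 482.9 FPKM in the mutants, and the list's median lay at -0.60 on the log2 scale. Single markers ranged from -2.71 (*Shh*) to 0.97 (*Sftpc*), so the median does not measure the amount of epithelium. Relative to that median, *Lamb3* stood at -1.43 and *Smoc2* at -0.76 on the log2 scale, past 1.5-fold. *Lama3* stood at -0.41 and *Lama5* at -0.08 relative to the same median, within 1.5-fold. This is a change of reference only, and whether the RNA of these genes came from epithelium was not tested.

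Smooth muscle markers were also lower, 4 of 6 past 1.5-fold and 1 of 6 higher, with sums of 282.5 and 145.2 FPKM. Cardiac muscle markers were higher in *Yap* mutant lungs for 8 of 8 that passed, with sums of 98.9 FPKM in the controls and 671.0 FPKM in the mutants. Their log2 fold changes ranged from 1.34 to 6.41. Of 4 liver genes, 3 were at least 1.5-fold higher, with sums of 8.47 and 40.6 FPKM and log2 fold changes from -0.15 to 4.52. The exception was the albumin gene *Alb*, with 1.28 FPKM in the controls and 1.14 FPKM in the mutants. The source of the RNA of these cardiac and liver list genes was not tested. Endothelial markers, in contrast, lay between -0.17 and 0.25 on the log2 scale for all 13 genes, with sums of 294.0 and 321.1 FPKM. The 15 mesenchymal markers had sums of 1444.0 and 1418.2 FPKM, with 4 lower and 2 higher past 1.5-fold. Neuronal and glial markers had a median log2 fold change of -0.52, mesothelial markers one of 0.31, macrophage markers one of 0.22 and erythroid markers one of 0.14. None (0) of the markers with a locus was at 0 in either genotype.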

How the data were processed

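Whole-lung RNA at 12.5 *dpc* was sequenced from 3 control and 3 *Yap* mutant samples as stranded paired-end libraries on HiSeq instruments. The submitters' processing notes name TopHat, Cuffdiff and mm10. Their versions, the annotation and the strand setting of the counting are not stated in the sources read. The authors deposited 2 tables. In the table of all loci, which was used, the authors deposited 1 FPKM value per genotype, as the Cuffdiff layout of the header is read, with the libraries of a genotype summarised. The table of changed loci, the deposited fold changes and the deposited p-values are the authors' own comparison and were not used. No value per library was used, so there is no test, error or depth.

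Members and lists were chosen with earlier results of these data known. All members are reported. From the lists around the basement membrane, the 3 largest differences in each direction past 1.5-fold are named. A gene of these lists is not reported here and was left out of their counts. Locus starts were read as counting from 0, so 1 was added. Of the 33 genes, 13 share exons with another GENCODE M21 gene, nearly all on the opposite strand. *Lama3*, *Lama2*, *Fras1* and *Bcam* are among them, so reads of an antisense partner may be included. Alternatives were 1.25-fold and 2-fold, no filter or a mean of at least 5 FPKM, 0.01 or 1 FPKM added, and centring on all loci or on epithelial markers. Python 3.11.15, numpy 2.4.6, pandas 2.3.3 and matplotlib 3.10.9 were used.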

Additional observations from a re-analysis of the deposited data

How the results depend on the processing

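No paired analysis was possible because the deposited table holds 1 value per genotype, and for the same reason no library could be left out. In the main setting 4 of 28 genes were lower (3.3% of all loci) and 2 were higher (4.44%) past 1.5-fold, with a median log2 fold change of -0.15. At a ratio of 5 to 4, 8 were lower (6.8% of all loci) and 2 were higher (9.63%). At 2-fold, 3 were lower (1.28% of all loci) and 0 were higher (2.15%). A mean of at least 5 FPKM left 23 genes, with 2 lower (1.91% of all loci) and 1 higher (2.27%), since *Lama3*, *Lamb3* and *Lama2* lie under it. With 1 FPKM added, 4 were lower (2.33% of all loci) and 1 was higher (3.09%). Relative to the epithelial median, 2 were lower (0.841% of all loci) and 8 were higher, and the members' median turned to 0.44, a setting in which 51.6% of all loci counted as higher. With no filter, 6 of 33 were lower (4.16% of all loci) and 3 were higher (6.36%). Adding 0.01 FPKM or centring on all loci gave 4 lower and 2 higher, as in the main setting. The filter removes no laminin alpha gene, so it could not alter their shares. Depth per library is unknown, so values near 1 FPKM, including those of *Lamb3* in *Yap* mutant lungs, are of unknown precision.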
